A study of Mus musculus with 2 samples.

Results

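The bone morphogenetic protein (BMP) genes described here were 6 ligand genes (Bmp2, Bmp4, Bmp5, Bmp6, Bmp7 and Bmp10), 2 receptor genes (Bmpr1a and Bmpr2) and 2 genes of secreted antagonists (Grem1 and Nog). They were chosen by gene symbol, and all 10 were on the array, among 19057 named genes. They were read by 17 probes, and every probe is accounted for. RNA of lacZ-positive epicardial cells of E11.5 mouse hearts was compared with RNA of all cells dissociated from such hearts, on 1 Illumina bead array each. Both samples came from Tcf21lacZ mice on a mixed C57BL/6, 129 and CD-1 background, so that the total heart carried the allele too. Tcf21 encodes a transcription factor of the epicardium, the cell layer that covers the heart, and lacZ at its locus marked the cells that were isolated. The labels do not say whether the allele was present in 1 or 2 copies, how many hearts were pooled or how the cells were sorted.

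BMPs are secreted dimers that bind a pair of type I receptors and a pair of type II receptors at the cell surface. The type II receptor activates the type I receptor, which phosphorylates Smad proteins that then enter the nucleus and switch on targets such as the Id genes. Antagonists such as noggin and gremlin bind the ligands outside the cell and keep them from their receptors. In the embryonic heart these signals are known for patterning the atrioventricular canal and outflow tract, for cushion formation and for growth of the trabeculae.

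Since 1 array stood for each group, no difference between them could be tested, and each is described by its size. The median raw intensity was 63.5 on the lacZ-positive array and 57.6 on the total heart array, and 35.8% and 34.3% of the 45281 probes were detected on the lacZ-positive and the total heart array, at a detection p-value under 0.01. Tcf21 itself had a log2 ratio of 1.34 ± 0.083, where the error is the standard error over beads, or a level 2.53-fold higher in lacZ-positive cells. The position of its probe relative to the lacZ insertion was not known, so its signal is no check on the allele or the sort. The array read 8 of 10 epicardial and mesothelial markers above background, 7 of which were higher by 2-fold or more, led in brightness by the uroplakin gene Upk3b (3.75-fold). Tbx18 and Msln were the 2 not detected. Markers of other cells also gave signal on the lacZ-positive array: it detected all 11 cardiomyocyte markers and 6 of the 7 detected erythroid markers, with the ventricular myosin gene Myl2 at a log2 signal of 14.76, against 15.45 in total heart. Myl2 was the brightest cardiomyocyte marker there and the least lowered, at a log2 ratio of -0.69, where the 11 had a median of -1.52. In such bulk samples, fewer cells of a type and less RNA per cell cannot be told apart.

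Of the 10 BMP genes, 5 were detected on at least 1 array (Bmp4, Bmp5, Bmp7, Bmpr1a and Bmpr2), and 4 of them on both arrays. Bmp4 was about 2-fold higher in the lacZ-positive cells, Bmp7 was 4.21-fold lower, and the receptor genes were within 2-fold. Bmp5 was within 2-fold by its measured value. It was detected in total heart only, so that value sets no limit on how much lower it was. By measured values 1 gene was at least 2-fold higher, where 3.82% of all 9713 detected genes were. At least 2-fold lower was 1 gene, where 6.44% were. The members' ratios had a median of 0.45 on the log2 scale, against 0.044 for all detected genes. This median leaves out the genes not detected and is a description only. Bmp2, Bmp6, Bmp10, Grem1 and Nog had no probe detected on either array and have no ratio.

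**Figure D1:**
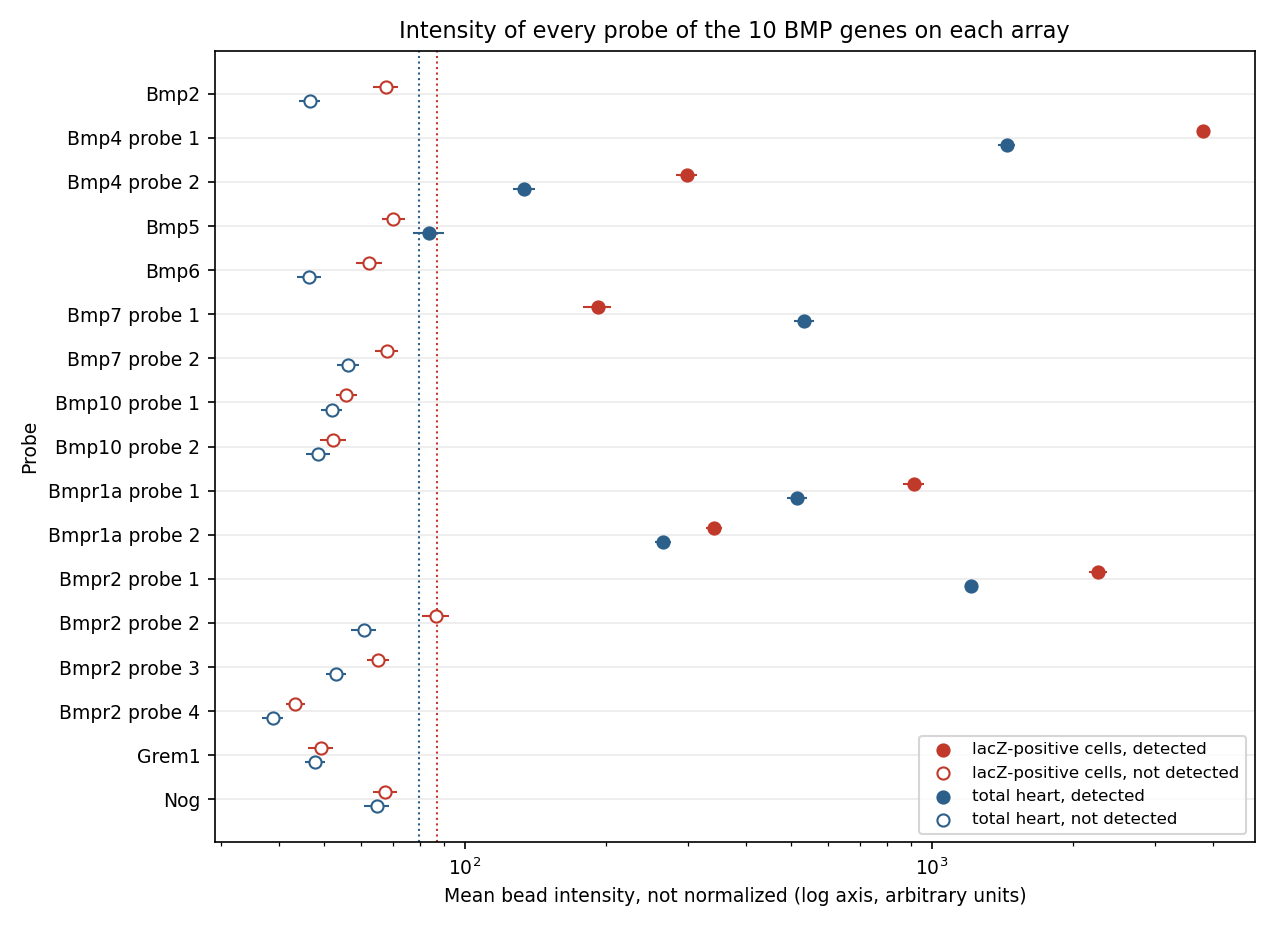
Mean bead intensity (log axis, arbitrary units, not normalized) of the 17 probes of the 10 BMP genes on the lacZ-positive array (red, upper point of each pair) and the total heart array (blue, lower point). Bars are the standard error over beads, filled points were detected, and dotted lines mark the lowest intensity among detected probes of each array, 86.9 on the lacZ-positive and 79.7 on the total heart array. Both Bmp4 probes lie further right in lacZ-positive cells, and the brighter Bmp7 probe further left.

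Bmp4 encodes a ligand that signals through the receptor encoded by Bmpr1a and is known for its part in the outflow tract and its cushions. Its brighter probe had a raw intensity of 3800 ± 85.8 in lacZ-positive cells and 1446 ± 59.1 in total heart, where the error is the standard error over 37 and 31 beads. Its dimmer probe had 299 ± 16.1 in lacZ-positive cells and 134 ± 7.08 in total heart, over 52 and 58 beads. Both probes were brighter in the lacZ-positive cells by far more than their bead error.

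After background correction and quantile normalization, the Bmp4 probes gave log2 ratios of lacZ-positive cells over total heart of 1.01 ± 0.066 and 1.02 ± 0.13 (bead standard error). The probes differed by 0.014, which is less than the standard error of that difference, 0.15. Across the array, the ratios of 3020 genes with a pair of probes detected on both arrays had an SD of 0.25 per probe. This SD compares different probes of a gene on the same 2 arrays, and holds no spread between hearts or isolations. Among the 9713 detected genes 3.70% had a higher ratio. The ratio sat on the 2-fold line itself: it was 0.99 with no background correction and 0.99 with an offset of 50, which puts Bmp4 just under 2-fold in both cases.

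The Bmp4 promoter is shown because Bmp4 had the highest ratio of the 5 detected genes and because it holds E-boxes, the class of motif that Tcf21 and other basic helix-loop-helix factors bind. It is the stretch of 250 bases before the start site in the RefSeq table (GRCm38.p6, chr14:46390670-46390919, minus strand, written 5′ to 3′ along the gene), with matches in capitals.
Bmp4: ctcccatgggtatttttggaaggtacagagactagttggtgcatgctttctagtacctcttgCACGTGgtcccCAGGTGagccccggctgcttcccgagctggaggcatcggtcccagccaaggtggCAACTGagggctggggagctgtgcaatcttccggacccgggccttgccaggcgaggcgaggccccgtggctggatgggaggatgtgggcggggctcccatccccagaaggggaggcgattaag
The capitals mark 3 matches to CANNTG, searched on both strands: CACGTG at -188 to -183, CAGGTG at -177 to -172 and CAACTG at -123 to -118, counted back from the start site. Such a match stood in 66.2% of all 32851 promoter stretches of this length, so its presence is common. The stretch of the undetected Bmp6 held 2 matches to CANNTG, among them CACGTG, so the motif does not set Bmp4 apart. The Bmp4 stretch held 0 matches to the Smad motifs GGCGCC and CAGAC, on either strand, where 9.59% and 42.2% of all stretches held them. The RefSeq table held promoters for 7 of the 10 genes.

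Bmp7 encodes a ligand of the same subfamily as Bmp5 and Bmp6, which bind the type I receptor encoded by Acvr1 as well as the BMP type I receptors, and it is known to be made by the embryonic myocardium. The Bmp7 probe annotated to a RefSeq mRNA had a raw intensity of 192 ± 13.5 in lacZ-positive cells and 531 ± 25.9 in total heart, over 33 and 31 beads. Its log2 ratio was -2.07 ± 0.15, or 4.21-fold lower, and 1.24% of detected genes had a lower ratio. It was still detected in lacZ-positive cells, at a log2 signal of 7.10 where the lowest detected signal was 5.50. Bmp7 was lower by at least 2-fold under each of the 8 alternative settings tried, with log2 ratios between -2.09 and -1.69. The settings that changed only the detection limit, the detection filter or the probe rule kept the same probe and value. They were therefore no check on Bmp7.

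The other Bmp7 probe, annotated to a cDNA record, was detected on neither array. It read 68.0 ± 3.94 in lacZ-positive cells and 56.2 ± 3.12 in total heart. The Bmp7 result therefore rests on 1 probe, whereas that of Bmp4 rests on 2.

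Bmp5 encodes the close relative of Bmp7, and its single probe was detected in total heart only. It read 70.3 ± 3.99 in lacZ-positive cells, with a detection p-value of 0.059, and 83.8 ± 6.49 in total heart, with a detection p-value of 0.0085. Against the lowest detected signal of the lacZ-positive array, Bmp5 was at least 1.22-fold lower on the normalized scale. That bound depends on the normalization: before it, the total heart intensity lay below 86.9, the lowest detected intensity of the lacZ-positive array. The measured log2 ratio was -0.79 ± 0.24, and its probe lay close to the detection limit on both arrays.

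The other 3 ligand genes were read by 4 probes, none of them detected on either array. The probe of Bmp2, which encodes the ligand of the atrioventricular canal myocardium, read 67.7 ± 4.19 in lacZ-positive cells and 46.6 ± 2.47 in total heart. The probe of Bmp6 read 62.4 ± 3.91 in lacZ-positive cells and 46.5 ± 2.71 in total heart. Both were dimmer on each array than the dimmest probe counted as detected there, and no fold is given.

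Bmp10 encodes a ligand of the trabecular myocardium in the embryonic ventricle and of the atrium later on. Its probes read 55.8 ± 2.91 and 52.3 ± 3.37 in lacZ-positive cells and 51.9 ± 2.72 and 48.5 ± 2.80 in total heart. The detection p-values of these probes were 0.31 and 0.46 in lacZ-positive cells and 0.32 and 0.48 in total heart, in the middle of the range of control probes. Whether these probes respond to Bmp10 RNA was not tested, so they do not measure its level here.

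**Figure D2:**
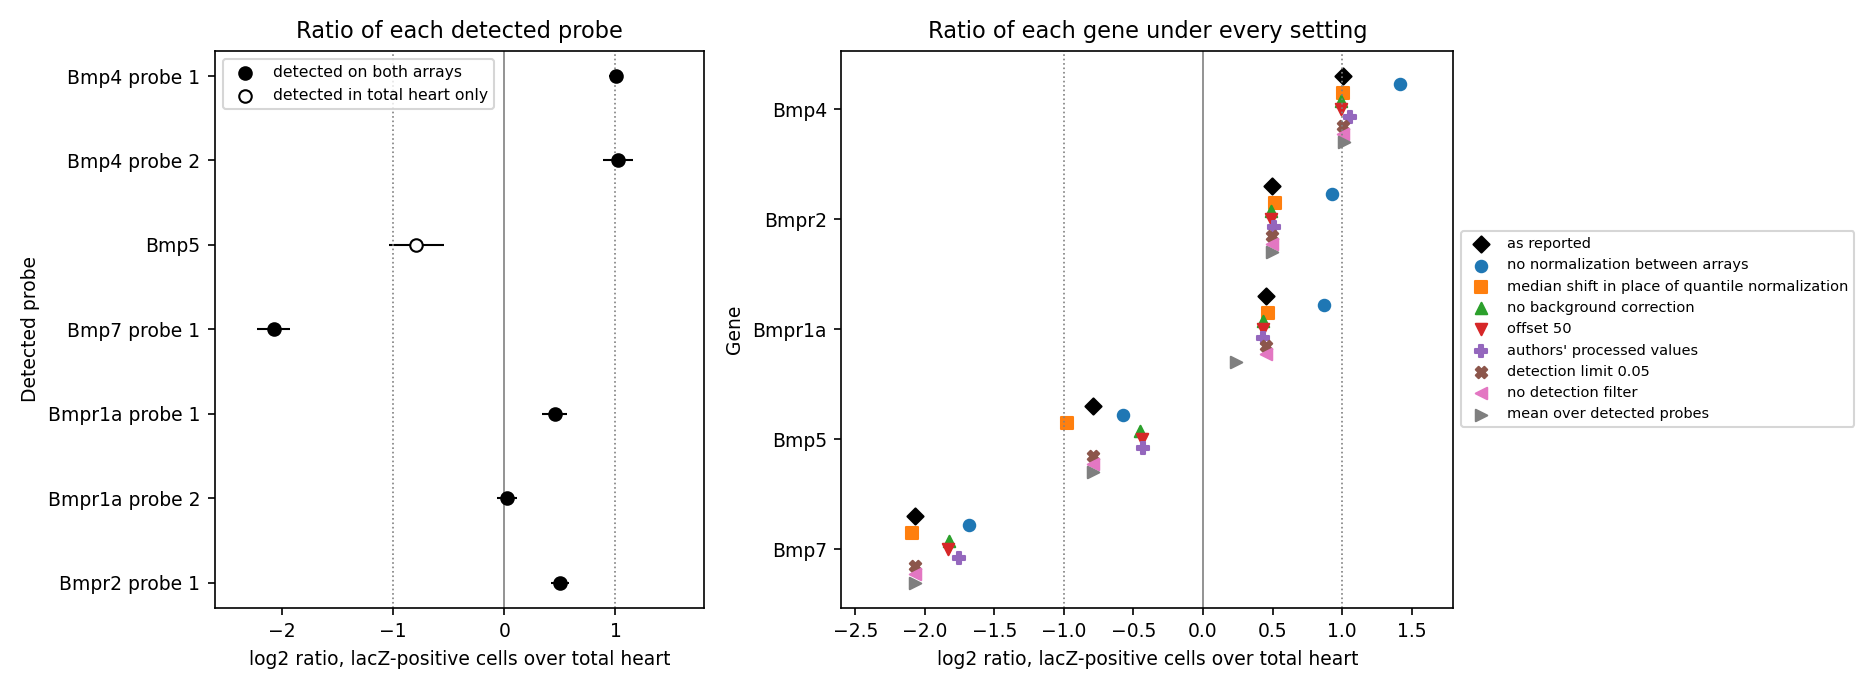
Left, log2 ratio of lacZ-positive cells over total heart for the 7 probes of BMP genes detected on at least 1 array, with the bead standard error. Right, log2 ratio of the 5 detected genes as reported (black diamonds) and under 8 alternative settings, with dotted lines at 2-fold. No gene changes side of 0, Bmp7 stays below -1 throughout, and without normalization between the arrays (blue circles) all 5 genes lie further right.

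Bmpr1a encodes the type I receptor that binds BMP2 and BMP4. Its brighter probe read 914 ± 48.3 in lacZ-positive cells and 513 ± 25.6 in total heart, over 26 beads on each array, with a log2 ratio of 0.45 ± 0.11. Its dimmer probe read 342 ± 13.7 in lacZ-positive cells and 265 ± 10.2 in total heart, with a log2 ratio of 0.021 ± 0.090. The probes differed by 0.43 with a bead standard error of 0.15, where the typical (median) difference between a pair of probes of a gene was 0.19. The size of the Bmpr1a ratio therefore depends on the probe, and the mean of both was 0.24.

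Bmpr2 encodes a type II receptor used by many BMPs. Of its 4 probes only 1 was detected, and it read 2268 ± 105 in lacZ-positive cells and 1209 ± 34.4 in total heart, with a log2 ratio of 0.50 ± 0.080. That probe carried the symbol but no transcript record in the platform annotation. The other 3 probes, all annotated to the RefSeq mRNA of Bmpr2, were detected on neither array, with intensities between 43.4 and 86.7 in lacZ-positive cells and between 38.8 and 60.8 in total heart. Among these, the brightest missed the detection limit in lacZ-positive cells by little, at a detection p-value of 0.011.

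Ordered by ratio, the detected genes ran Bmp4, Bmpr2, Bmpr1a, Bmp5 and Bmp7 from the highest to the lowest. Bmpr2 and Bmpr1a differed by 0.046 with a bead standard error of 0.14, so that these neighbours do not differ beyond their error. The other neighbours differed by 0.51 (Bmp4 and Bmpr2), 1.24 (Bmpr1a and Bmp5) and 1.28 (Bmp5 and Bmp7), each over 4 times its bead standard error. That error covers neither the spread between hearts nor that between isolations. It also leaves out the spread between probes, which had an SD of 0.25 per probe across the array. The 2 probes of Bmpr1a alone differed by 0.43. Bmp5 enters this order by its measured value, not by its bound.

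The promoters of the receptor genes are shown because both stretches held GGCGCC, a GC-rich motif that Smad proteins of the BMP branch bind. By their brightest probes both genes had ratios above 0, but the dimmer Bmpr1a probe stood at 0.021. The Bmp4 stretch held 0 matches to GGCGCC, although Bmp4 had the highest ratio. The stretch of the undetected Grem1 held GGCGCC too, with 1 match, so this motif does not set the receptor genes apart. CAGAC had 1 match each in the stretches of Bmp5, Bmp6 and Grem1 and 0 in both receptor stretches. It stood in 42.2% of all promoter stretches of this length. The receptor stretches are the 250 bases before the start site in the RefSeq table (GRCm38.p6), written 5′ to 3′ along each gene with matches in capitals. They lie at chr14:34502547-34502796 on the minus strand and chr1:59764029-59764278 on the plus strand.
Bmpr1a: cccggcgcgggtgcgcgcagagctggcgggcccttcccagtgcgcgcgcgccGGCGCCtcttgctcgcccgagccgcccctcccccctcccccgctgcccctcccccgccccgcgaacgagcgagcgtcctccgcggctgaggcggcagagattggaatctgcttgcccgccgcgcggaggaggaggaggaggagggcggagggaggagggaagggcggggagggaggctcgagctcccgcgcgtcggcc
Bmpr2: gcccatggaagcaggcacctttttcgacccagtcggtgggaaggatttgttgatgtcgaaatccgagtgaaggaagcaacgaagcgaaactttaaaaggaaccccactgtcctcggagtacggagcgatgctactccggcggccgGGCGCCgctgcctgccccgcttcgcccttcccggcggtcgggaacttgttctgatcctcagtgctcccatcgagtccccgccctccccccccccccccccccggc
The match lies at -198 to -193 in Bmpr1a and at -105 to -100 in Bmpr2. It stood in 9.59% of all promoter stretches of this length. The Bmpr1a stretch is 78.8% G and C and the Bmpr2 stretch 64.0%, against 63.2% for Bmp4, and GC-rich motifs are found more often in GC-rich sequence. CANNTG had 0 matches in both receptor stretches.

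The antagonist genes were not detected. Grem1, whose product gremlin binds BMP2, BMP4 and BMP7, read 49.1 ± 3.02 in lacZ-positive cells and 47.8 ± 2.33 in total heart. Nog, whose product noggin blocks the receptor-binding faces of the same ligands, read 67.5 ± 4.06 in lacZ-positive cells and 64.9 ± 3.97 in total heart. The detection p-value of Nog was 0.077 in lacZ-positive cells and 0.0502 in total heart. Each of these genes had 1 probe, so no second reading was at hand.

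Lists of other BMP pathway genes held 64 names, of which 59 were on the array and 33 were detected. Of the 33 genes, 5 were at least 2-fold higher in lacZ-positive cells (against 3.82% of all detected genes) and 1 was lower (against 6.44%). The other 27 were within 2-fold by their measured values. The median log2 ratio was 0.55, against 0.044 for all detected genes. With no normalization between the arrays it was 0.87, against 0.42.

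Among 8 other ligand genes on the array only Gdf10, which encodes a member of the BMP3 subgroup, was detected, at a log2 ratio of -0.42 ± 0.092. Of 10 other receptor and co-receptor genes on the array 5 were detected, all within 2-fold, with a median of 0.53. The highest was Rgma, which encodes a BMP co-receptor, at 0.89 ± 0.12, and the lowest was Eng, which encodes the endothelial co-receptor endoglin, at -0.11 ± 0.097. The Eng ratio became 0.31 with no normalization between the arrays, so its sign depends on the scaling. Acvr1, which encodes the type I receptor for BMP7 and was picked out after its value was seen, stood at 0.71 ± 0.070.

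Genes of extracellular antagonists and modulators had 11 of 20 detected, with a median of 0.73. Of these 3 were at least 2-fold higher (against 3.82% of all detected genes) and 0 lower (against 6.44%). Bmper, which encodes a secreted BMP-binding modulator, had the highest ratio among these pathway genes when the brightest probe stood for each gene, although dimmer probes of Tbx20 (2.20) and Id2 (1.38) gave higher log2 ratios than its 1.35. It read 693 ± 32.2 in lacZ-positive cells and 231 ± 9.24 in total heart, and was 2.55-fold higher. Nbl1, which encodes an antagonist of the same family as gremlin, was 2.16-fold higher by its brighter probe, while another probe, below the detection limit in total heart, stood at 0.30. Bmp1, which encodes not a ligand but a metalloprotease that cleaves the antagonist chordin and procollagens, was 2.01-fold higher by its brightest probe and stood at 0.48 and 0.53 by the other probes detected on both arrays. At the low end Fst, which encodes follistatin, an inhibitor mainly of activins, read 96.5 ± 5.61 in lacZ-positive cells and 123 ± 6.99 in total heart, with a log2 ratio of -0.92 ± 0.17.

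Of the signal transducers and their inhibitors, 5 of 9 on the array were detected, all within 2-fold, with a median of 0.11. Smad6, which encodes an inhibitory Smad that BMP signals themselves switch on, was highest at 0.55 ± 0.11. Map3k7, which encodes the kinase TAK1, was lowest at -0.30 ± 0.16, and its other detected probe, not detected in total heart, gave 0.66. The sign for Map3k7 thus differed between probes, and the lower value became 0.016 with no normalization between the arrays.

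Genes known as BMP targets had 12 of 14 detected. Of these 2 were at least 2-fold higher (against 3.82% of all detected genes), 1 lower (against 6.44%) and 9 within 2-fold. Their median was 0.59, and 0.57 once the genes seen on 1 array were set to their bounds. Msx1, which encodes a homeodomain factor of cushion mesenchyme, read 850 ± 27.6 in lacZ-positive cells and 308 ± 13.7 in total heart, or 2.26-fold higher. Id3, which encodes an inhibitor of basic helix-loop-helix factors, read 581 ± 50.8 in lacZ-positive cells and 222 ± 14.5 in total heart, or 2.22-fold higher. Id1, named after its value was seen, lay just under 2-fold at 0.99 ± 0.077. At the other end Nkx2-5, which encodes a cardiomyocyte homeodomain factor, read 250 ± 10.9 in lacZ-positive cells and 695 ± 25.8 in total heart, or 4.10-fold lower.

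**Figure D3:**
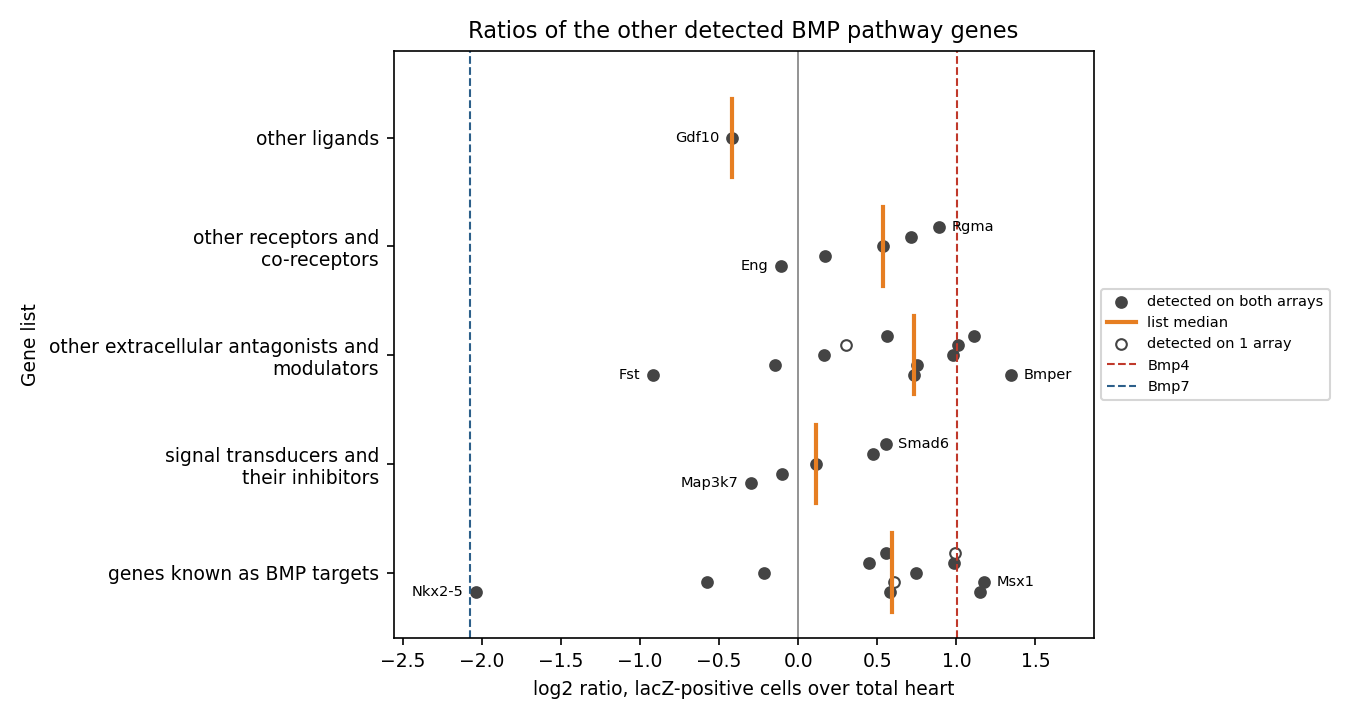
Log2 ratio of lacZ-positive cells over total heart for each other BMP pathway gene detected on at least 1 array, by list, with orange bars at the list medians and dashed lines at Bmp4 (red) and Bmp7 (blue). The genes with the highest and lowest ratio of each list are named. Of the 33 genes 24 lie right of 0, where the median of all detected genes was 0.044, and Nkx2-5 lies beside Bmp7.

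Markers of other cells are given beside all detected genes, of which 3.82% were at least 2-fold higher and 6.44% lower. Mesenchymal markers were higher, 6 of 8 detected genes by at least 2-fold with a median of 1.27 and Sox9 the brightest, and their normalized intensities summed to 24077 in lacZ-positive cells and 9147 in total heart. Cardiomyocyte markers were lower, 8 of 11 detected genes by at least 2-fold with a median of -1.52, and summed to 63424 in lacZ-positive cells and 147732 in total heart. Foregut endoderm and hepatoblast markers were lower too, 7 of 8 detected genes by their measured values with a median of -1.38 and Apoa2 the brightest, and summed to 1162 in lacZ-positive cells and 2774 in total heart. Of these 8 endoderm markers 5 were detected in lacZ-positive cells and 8 in total heart.

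Erythroid markers had 5 of 7 detected genes at least 2-fold lower. Their median was -2.05, or -1.87 with a bound in place of the value of a gene seen on 1 array. They summed to 90955 in lacZ-positive cells and 129486 in total heart. The brightest, the globin gene Hba-a1, went the other way, at a log2 ratio of 0.25. Leukocyte and platelet markers had 4 of 5 lower, with sums of 938 in lacZ-positive cells and 2679 in total heart, the brightest being Pf4. Endothelial markers had 1 of 9 lower and 8 within 2-fold, with Egfl7 the brightest and sums of 12873 in lacZ-positive cells and 12639 in total heart. Their median of -0.11 became 0.23 with no normalization between the arrays. The part of any of these cells in the ratios of Bmp4 and Bmp7 was not tested.

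**Figure D4:**
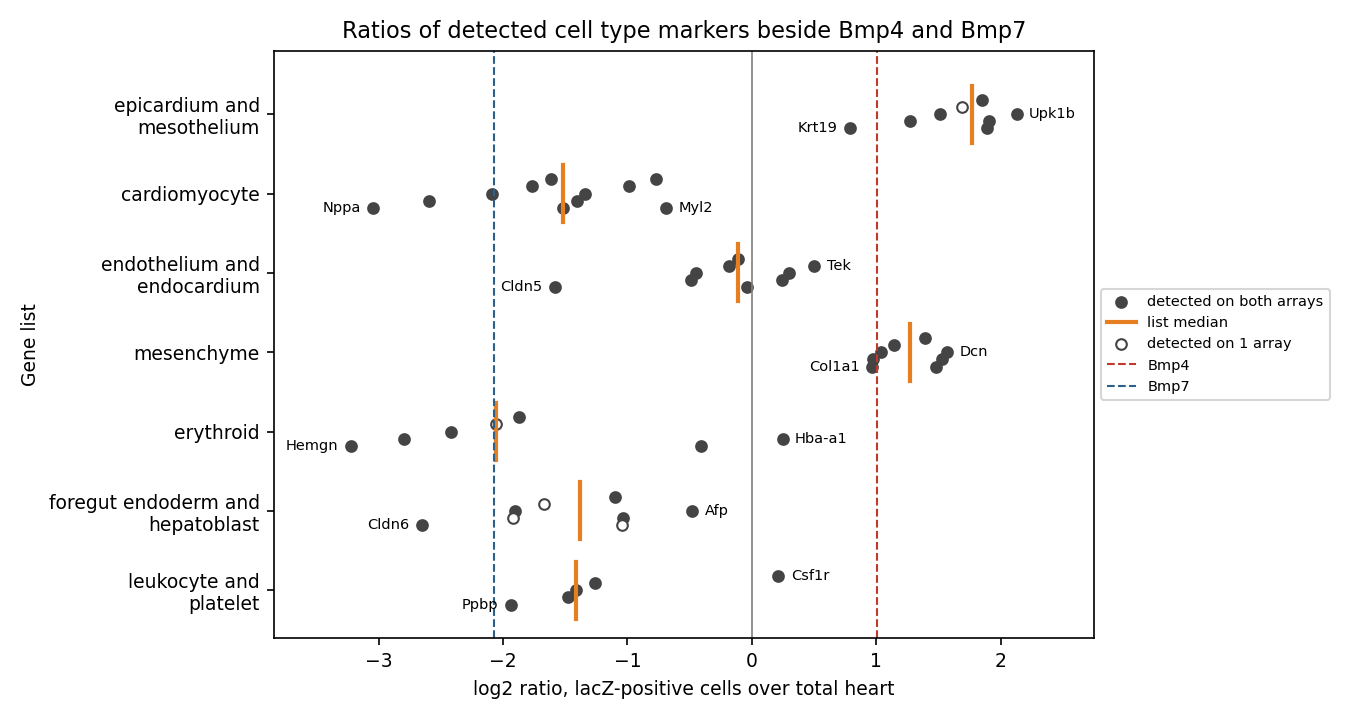
Log2 ratio of lacZ-positive cells over total heart for detected markers of 7 cell types, with orange bars at the list medians and dashed lines at Bmp4 (red, 1.01) and Bmp7 (blue, -2.07). The Bmp4 line falls within the spread of the mesenchymal and epicardial markers but below their medians of 1.27 and 1.77. The Bmp7 line falls within that of the cardiomyocyte, endoderm and erythroid markers but below their medians of -1.52, -1.38 and -2.05.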

How the data were processed

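Total RNA was made into biotinylated cRNA for Illumina arrays, per the labels' protocols. The submitters' processing notes name GenomeStudio, and neither the authors' normalization nor the genome build is given in the sources used here. Per the file headers, the main deposited table gave for each probe an intensity averaged over beads, its standard error, the number of beads and a detection p-value. The detection p-values, as deposited, were multiples of 1/936. A second deposited table held intensity values that the authors processed by an unstated method, on a linear scale, with sorted columns that differed by at most 0.141%. It served as an alternative.

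Intensities were background-corrected with limma's normexp model (nec, limma 3.58.1, R 4.3.3), with background estimated from the detection p-values and an offset of 16, followed by quantile normalization and a log2 transformation. These steps were run on simulated arrays in which few probes were changed, as many up as down. That simulation did not cover an unequal balance of higher and lower genes. Genes with a probe at a detection p-value under 0.01 on at least 1 array were kept, and the detected probe with the highest mean log2 signal stood for it. Ratios are lacZ-positive minus total heart. A gene detected on 1 array has a bound, taken against the lowest detected signal of the dim array or the dim probe's own signal, whichever is higher. Errors are standard errors over beads and cover nothing else. The number of arrays, 1 per group, limits the precision.

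Gene names came from GEO's platform annotation: of 45281 probes, 34885 had 1 symbol, 18 several and 10378 none. The genes and lists were chosen with earlier results of these data known. The text names the 10 BMP genes with every probe, Tcf21, the genes of each pathway list past 2-fold or with its highest or lowest ratio, and the brightest marker of each cell type, with exceptions marked. As alternatives, the between-array normalization, background correction, offset, detection limit, probe rule and table were changed one at a time.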

Additional observations from a re-analysis of the deposited data

How the results depend on the processing

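All 5 detected BMP genes kept their direction under the 8 alternatives. Not all of these could change a ratio. The changed detection limit and the absence of a detection filter left all 5 values as reported. The mean over detected probes changed only Bmp4 and Bmpr1a, the genes with 2 detected probes. Bmp4 lay between 0.99 and 1.41, Bmpr2 between 0.49 and 0.92, Bmpr1a between 0.24 and 0.87, Bmp5 between -0.98 and -0.43 and Bmp7 between -2.09 and -1.69. With no background correction, and with an offset of 50, the number of BMP genes at least 2-fold higher was 0, because Bmp4 stood at 0.99 in both. The median of the detected BMP genes was 0.87 with no normalization between arrays, 0.24 with the mean over detected probes and 0.13 with no detection filter, which adds the 5 undetected genes. Over all genes, 371 were at least 2-fold higher and 626 at least 2-fold lower as reported. Of these genes past 2-fold, 37.2% were higher. With no normalization between arrays 1020 were higher and 381 lower, so that 72.8% of the genes past 2-fold were higher. The median of all genes was then 0.42 in place of 0.044. Relative to that median Bmp4 stood at 0.99, Bmpr2 at 0.51, Bmpr1a at 0.45, Bmp5 at -0.99 and Bmp7 at -2.11. The higher genes numbered 225 with no background correction, 223 with an offset of 50 and 219 with the authors' processed values, where the lower genes numbered 404. The causes of these shifts were not tested. No paired analysis was possible because each group had 1 array, and for the same reason no array could be left out. Near background, as for Bmp5, signal limits the size of a ratio.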

Other observations

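Several BMP targets had probes that disagreed in size, and they are given here after their values were seen. Id2, another Id gene, had a log2 ratio of 0.58 ± 0.084 by its brightest probe, against 1.38 ± 0.073 and 0.85 ± 0.25 by its other probes, all detected on both arrays. Tbx20, a cardiac T-box gene, had 0.45 ± 0.097 by its brightest probe, against 2.20 ± 0.14 and 0.78 ± 0.20 by the other probes detected on both arrays. All of these ratios were above 0. Id4, detected in lacZ-positive cells only, read 147 ± 6.84 in lacZ-positive cells and 78.4 ± 3.82 in total heart, with a measured log2 ratio of 0.99 that was 0.61 with the authors' processed values, and its second probe gave 0.48. Tbx2 and Tbx3, T-box genes of the atrioventricular canal and conduction tissue, stood at -0.21 ± 0.15 and -0.58 ± 0.11, and Tbx2 became 0.16 with no normalization between the arrays.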
